A study of Arabidopsis thaliana with 6 samples.

Results

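In Arabidopsis seedlings, 268 genes had transcripts whose level lay above the ASI1 input in both ASI1 RIP libraries and below the WT input in both WT RIP libraries. RIP-seq sequences the RNA that is recovered with a protein from crosslinked tissue, and an input library holds the RNA before the precipitation. The genes were taken by this rule from the 2319 genes outside ribosomal RNA (rRNA) that were listed for both genotypes. A level is a gene's count scaled by the listed counts of its library outside 4 rRNA genes, in counts per 1e6 (CPM). All CPM below are on this scale, and a value in brackets after a RIP pair is the input of that genotype. The rule found 279 genes, and 11 of them were left out by the choice of members. The members were chosen by their levels in all 6 libraries, so their position above or below input is a description with no test. The direction in WT depends on this scale: with counts divided by all listed counts, rRNA included, 8 of the 268 genes still met the rule.

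All groups were whole Col-0 seedlings, 14 d old, grown on 1% sucrose at 22 °C with 16 h light and 8 h dark. Fixation was with 0.5% formaldehyde. RNA was recovered with an anti-Flag antibody. Each genotype, ASI1 and WT, had 2 RIP libraries and 1 input library. A Flag tag on ASI1 in the ASI1 line and no tag in WT were inferred from the antibody and the names of the groups. The promoter and the number of lines are not stated in these sources. No label tells whether replicates were separate cultures. The p-values then cover the spread between these libraries alone, and that spread may be technical. In whole seedlings, fewer cells of a type and less RNA per cell cannot be told apart.

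ASI1 is a nuclear protein with a bromo-adjacent homology domain and an RNA recognition motif. It acts in a complex with EDM2, a protein with plant homeodomains, and with AIPP1, which bridges the other two. The complex is known for genes that carry heterochromatin inside a long intron, such as the histone demethylase gene IBM1 and the resistance gene RPP7, where it promotes full-length transcripts that reach the distal polyadenylation site. An untagged line precipitated with the same antibody gives the RNA that sticks to the beads or the antibody without the tagged protein.

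The libraries differed in depth outside rRNA. Outside rRNA there were 448561 and 362058 counts in ASI1 RIP (input 23810), against 23304 and 103549 in WT RIP (input 61644). The members took 11.3% and 12.8% of these counts in ASI1 RIP (input 4.07%), against 1.24% and 2.00% in WT RIP (input 6.89%). One read was worth 1.03 to 1.05 of the deposited expected counts. The median member had 127 and 118 counts in ASI1 RIP (input 2.06), against 1.04 and 1.05 in WT RIP (input 6.18). The median member thus rested on more than 100 reads in each ASI1 RIP library, and on few reads in each of the other 4. Over all shared genes the medians were 83.6 and 62.7 counts in ASI1 RIP (input 4.11), against 1.04 and 2.10 in WT RIP (input 6.18). At least 20 counts were reached by 266 members in each ASI1 RIP library (input 4), against 0 and 13 members in WT RIP (input 26). A count of 0 was listed for 54 members in the ASI1 input and for 125 and 44 members in WT RIP. No member was at 0 in ASI1 RIP or in the WT input. A count of 0 allows up to 3 counts, which is 126 CPM in the ASI1 input, 129 CPM in WT RIP replicate 1 and 29.0 CPM in WT RIP replicate 2. The WT input level lay above the limit of WT RIP replicate 1 in 109 members and above that of replicate 2 in all 268. For the other members a level below input in WT RIP replicate 1 was not resolved at this depth. These limits apply to a count of 0, which 44 members had in WT RIP replicate 2, while 102 had 1 read there. A WT input above the limit thus does not mean that the lower level was resolved for all 268. Every listed gene had a count above 0 in at least 2 of the 3 libraries of its genotype. A 0 in 1 WT RIP library was found in 169 members and a 0 in both in 0 members. All intervals given below are 95% intervals that cover counting error only.

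The rule left 279 genes, 12.0% of the 2319 shared genes. Of the shared genes 511 (22.0%) lay above input in both ASI1 RIP libraries, and 1376 (59.3%) lay below input in both WT RIP libraries on the scale outside rRNA. The 279 genes were 54.6% of the 511 and 20.3% of the 1376. The mirror rule, above input in both WT RIP libraries and below in both ASI1 RIP libraries, found 66 genes (2.85%), and 53 genes lay above input in all 4 RIP libraries. Not counting the 11, with ASI1 RIP replicate 1 left out the rule would take 570 genes, and with replicate 2 left out 629, so both ASI1 libraries were needed to reach the 268. Without WT RIP replicate 1 it would take 329 and without WT RIP replicate 2 it would take 386. Just inside the rule was AT1G71980, a RING finger gene, at 62.9 and 124 CPM in ASI1 RIP (input 43.2). Next came the pseudogene AT4G16910, at 431 and 363 CPM in ASI1 RIP (input 346), and AT4G01290, at 929.9 and 490.3 CPM in ASI1 RIP (input 475). Just outside was the xylosidase gene BXL1, at 1344 CPM in ASI1 RIP replicate 2 (input 1382). SRG3 followed at 499 CPM in ASI1 RIP replicate 1 (input 518), and the light-harvesting gene LHCB3 at 336 CPM in replicate 1 (input 346). These gaps are a fraction of 1 input read, and 842 shared genes failed exactly 1 of the 4 conditions.

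The median member lay above the ASI1 input by 1.22 and 1.50 on the log2 scale in ASI1 RIP replicates 1 and 2, and by -1.34 and -2.50 relative to the WT input in WT RIP replicates 1 and 2 (0.5 count added). With RIP replicates pooled, the member median was 1.47 over input in ASI1 and -2.26 in WT, against -0.16 and -1.52 over all shared genes. With a count of 0 set to 3 counts and nothing added, the medians were 1.35 and -2.60, against 0.02 and -1.61 over all shared genes. The WT median was -1.34 without WT RIP replicate 2, and it turned to 2.08 with all listed counts, rRNA included, as the scale. On that scale the median of all shared genes in WT moved to 2.83, so the members still lay below it. In ASI1 the same change of scale moved the member median to 6.59 and that of all shared genes to 4.96.

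**Figure D1:**
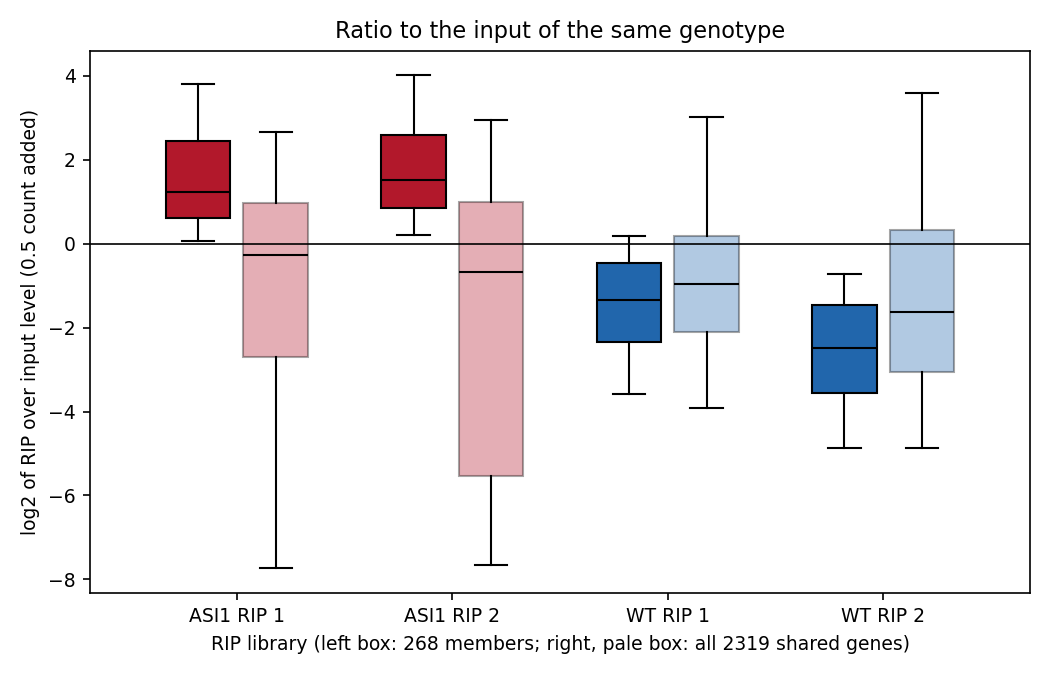
Box plots of the log2 ratio of each RIP library to the input of its genotype (0.5 count added, CPM outside rRNA), with the 268 members in dark boxes and all 2319 shared genes in pale boxes; boxes span the quartiles, lines are medians and whiskers run from the 5th to the 95th percentile of genes. The member medians are 1.22 and 1.50 in ASI1 and -1.34 and -2.50 in WT, where the WT direction turns with rRNA in the scale.

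**Figure D2:**
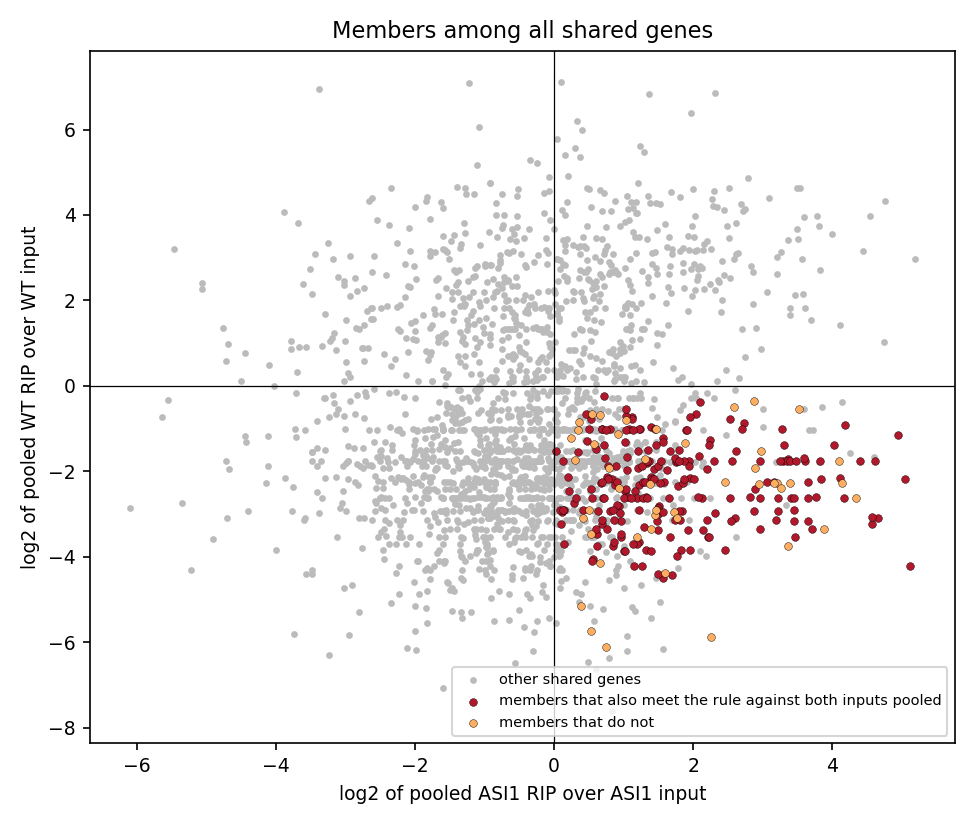
Each point is 1 gene, with the log2 ratio of the pooled ASI1 RIP libraries to the ASI1 input on the horizontal axis and of the pooled WT RIP libraries to the WT input on the vertical axis, on the scale outside rRNA. The members fill the lower right part by the rule; 222 of them (dark) also met it against both inputs pooled and 46 (pale) did not, and with all listed counts as the scale the WT median of the members turns positive.

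The ASI1 input and the WT input are 1 library each, and the 2 inputs differed for some members. The ASI1 input lay below the WT input in 146 members (54.5%), against 29.6% of all shared genes. With both inputs pooled into one reference, a comparison added after the values were seen, 222 members (82.8%) still met the rule. Against that pooled input 231 members lay above in both ASI1 RIP libraries and 257 lay below in both WT RIP libraries, and 317 shared genes met the rule in all, not counting the 11 left out. For AT5G14120, of the major facilitator family, the inputs held 3.09 counts in ASI1 and 202 in WT, a ratio of levels of 0.0384 (95% counting interval 0.00786 to 0.114). Its levels were 200.4 and 239 CPM in ASI1 RIP (input 129.6), against 89.2 and 50.7 CPM in WT RIP (input 3276), so that the WT input alone stood high. The splicing gene U1-70K had an input ratio of 0.215 (95% counting interval 0.120 to 0.358), and EMB2083, of the AAA-type ATPase family, one of 0.0503 (95% counting interval 0.00601 to 0.186). For these 3 genes the ASI1 RIP levels did not exceed the WT input. The counting interval of the input ratio lay wholly below 1 in 22 members (8.21%) and wholly above 1 in 9 (3.36%), against 6.17% and 14.7% of all shared genes.

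Setting the precipitates directly against each other leaves the inputs out. Both ASI1 RIP levels lay above both WT RIP levels in 255 members, against 604 shared genes (26.0%), and the groups overlapped in 13 members. The lower ASI1 RIP level lay above the other 4 libraries in 220 members, against 306 shared genes (13.2%), and overlapped them in 48. The interval of the pooled ASI1 RIP over the pooled WT RIP lay wholly above 1 in 261 members (97.4%), against 61.9% of all shared genes. In the direction of the rule, the interval of the ASI1 RIP over its input lay wholly above 1 in 142 members (53.0%, against 14.1% of all shared genes), and that of the WT RIP over its input lay wholly below 1 in 139 (51.9%, against 33.9%). Both intervals were clear of 1 in 69 members, and 56 of these also met the rule against the pooled input. The share of all shared genes was not worked out for either count, so neither can be read as many or few. These counts follow in part from the rule and support nothing beyond it.

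No member passed the test across all genes. Of the 268 members, all of which were fitted, edgeR's quasi-likelihood test with Benjamini-Hochberg adjustment called 0 higher for ASI1 RIP over input (0.0% of 2312 genes fitted) and 0 lower for WT RIP over input (0.0433%, which is 1 gene). For the difference of the 2 enrichments, ASI1 minus WT, edgeR called 0 members higher (0.0%), and for the ASI1 RIP against the WT RIP it called 0 higher (0.0%). At an unadjusted p under 0.05 there were 0 members in each of the 4 comparisons, against 0.13%, 0.303%, 0.0433% and 0.779% of all genes fitted. The smallest adjusted p of a member was 0.9999 for ASI1 RIP over input, 1.0 for WT RIP over input and for the difference, and 0.949 for ASI1 RIP over WT RIP. DESeq2 also called 0 members in each comparison, with 2, 3, 4 and 17 members at an unadjusted p under 0.05. Its smallest adjusted p of a member was 0.151, in the comparison of the 2 precipitates, where it called 17 genes of the whole table. The share of all genes at the unadjusted DESeq2 threshold was not worked out, so these counts of members cannot be read as many or few. The fit had 2 residual degrees of freedom and a biological coefficient of variation of 1.48, and the inputs were assumed to vary like the RIP libraries. In the authors' deposited tables no member had a p under 0.05 and each FDR was 1. There the log2 fold of RIP over input was above 0 in 268 members for ASI1 (median 1.91, against 0.15 over all shared genes) and in 12 members for WT (median -1.54, against -0.71).

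Both ASI1 RIP libraries gave similar levels for most members. The absolute log2 difference between them had a median of 0.66 over the members, and 181 of the 268 (67.5%) were within 2-fold of each other. Over the 1367 shared genes above 0 in both ASI1 RIP libraries the median difference was 1.26, with 41.7% within 2-fold; a gene with a low replicate could not meet the rule, so the members were bound to differ less. The widest gap was at AT1G44920, an uncharacterized gene, at 18.6 and 929 CPM in ASI1 RIP (input 0), against 0 and 10.14 CPM in WT RIP (input 66.9). A count of 0 in the ASI1 input allows up to 126 CPM, so its rise over input was not resolved in replicate 1. IDD5, a zinc finger regulator of the indeterminate domain family, was likewise uneven, at 2298 and 378 CPM in ASI1 RIP (input 216), against 0 and 20.3 CPM in WT RIP (input 167).

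**Figure D3:**
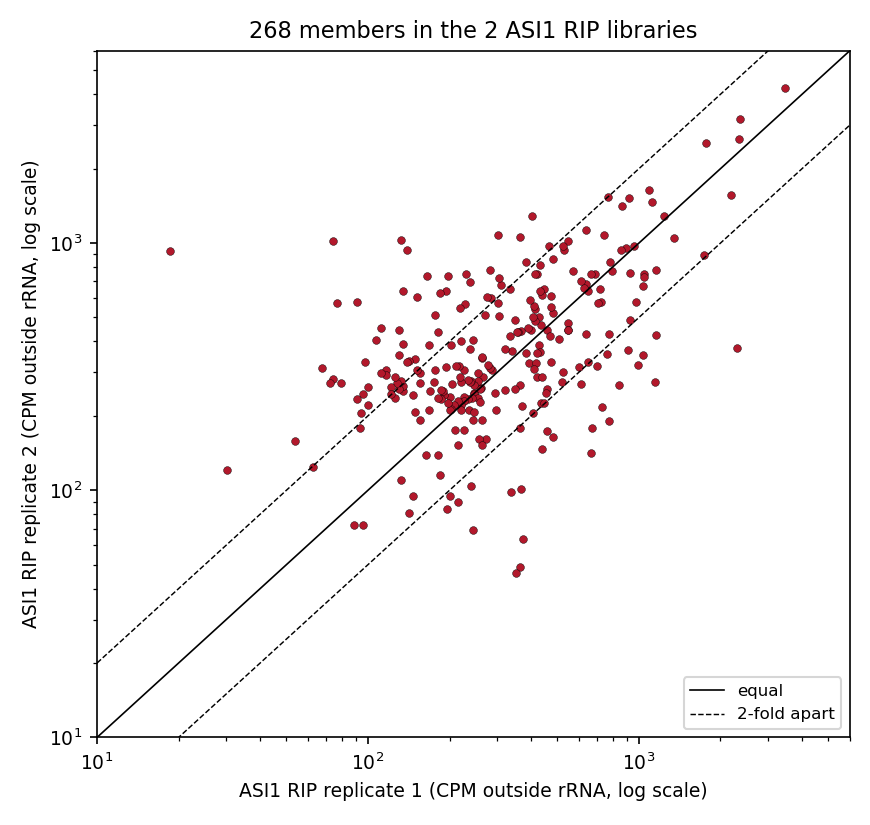
Levels of the 268 members in ASI1 RIP replicate 1 (horizontal axis) and replicate 2 (vertical axis), in CPM outside rRNA on log axes; the solid line marks equal levels and the dashed lines a 2-fold difference. Of the members, 181 lie between the dashed lines, and AT1G44920 lies farthest from the diagonal.

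Ordered by the lower of the 2 ASI1 RIP levels, the first 20 members were a mixture of abundant leaf transcripts and of genes with few WT RIP reads. Few WT RIP reads were not particular to these genes, since the median shared gene had 1.04 and 2.10 counts in WT RIP. CPM are not per transcript length, so the order is one of read share and not of molecules. NIA2, the major nitrate reductase gene (chromosome 1, 14158452 to 14161938, plus strand in TAIR10.1), came first with 1548 and 1541 counts in ASI1 RIP (input 64.8), against 15.6 and 146 counts in WT RIP (input 192). Its levels were 3451 and 4257 CPM in ASI1 RIP (input 2721), against 669 and 1409 CPM in WT RIP (input 3109). Both ASI1 RIP libraries were highest, the inputs lay between, and the WT RIP libraries were lowest without overlap. The enrichment of NIA2 differed between ASI1 and WT by a log2 value of 1.88 (SE 3.70), and edgeR gave it an adjusted p of 1.0.

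The polyubiquitin gene UBQ10, whose repeats share sequence with other ubiquitin genes so that its reads are uncertain, had 2333 and 2632 CPM in ASI1 RIP (input 915), against 669 and 1206 CPM in WT RIP (input 2156). DIN10, of the raffinose synthase family, had 1762 and 2549.8 CPM in ASI1 RIP (input 1425), against 223 and 1459.8 CPM in WT RIP (input 1939). In UBQ10 the WT input came near the lower ASI1 RIP library, in DIN10 it lay above it, and DIN10 did not meet the rule against the pooled input. The photosystem I subunit gene PSAF had 2188 and 1560.5 CPM in ASI1 RIP (input 993), against 624 and 1855 CPM in WT RIP (input 3559.8), and here the WT input stood above the ASI1 RIP libraries and WT RIP replicate 2 lay between them. PSBP-1, which encodes a subunit of the oxygen-evolving complex of photosystem II, had 1114 and 1465 CPM in ASI1 RIP (input 648), against 446 and 375 CPM in WT RIP (input 2056). THI1, the thiazole synthase of thiamine formation, had 862 and 940.3 CPM in ASI1 RIP (input 734), against 535 and 1206 CPM in WT RIP (input 2524), so WT RIP replicate 2 lay above both ASI1 RIP libraries. PSAF, PSBP-1, THI1 and the plastocyanin gene DRT112, at 715 and 655 CPM in ASI1 RIP (input 518), against 579.7 and 1642 CPM in WT RIP (input 2590.5), failed against the pooled input. Their ASI1 input to WT input ratios were 0.284 (95% counting interval 0.178 to 0.433), 0.306 (95% counting interval 0.166 to 0.524), 0.282 (95% counting interval 0.160 to 0.466) and 0.194 (95% counting interval 0.0983 to 0.349). GER1, a germin-like gene, had an ASI1 RIP over WT RIP ratio of 0.220 (95% counting interval 0.182 to 0.266), below 1 although it met the rule. GER1 was not alone in this. The ratio was 0.475 (95% counting interval 0.401 to 0.564) for DRT112 and 0.515 (95% counting interval 0.412 to 0.649) for the triosephosphate isomerase gene TIM. For the glycolate oxidase gene GOX2 it was 0.603 (95% counting interval 0.473 to 0.778).

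PUP14, a purine permease that imports cytokinins, was of the other kind. It had 553 and 466 counts in ASI1 RIP (input 11.3), against 1.04 and 4.20 counts in WT RIP (input 9.27). As levels these were 1233 and 1286 CPM in ASI1 RIP (input 475), against 44.6 and 40.6 CPM in WT RIP (input 150.4), and the pooled ASI1 RIP libraries lay above the pooled WT RIP libraries by a ratio of 31.9 (95% counting interval 13.6 to 98.4). The difference of the enrichments was 3.17 (SE 4.83) on the log2 scale, and edgeR gave it an adjusted p of 1.0. AT3G52060, of the core-2/I-branching glycosyltransferase family, had 487 and 592 counts in ASI1 RIP (input 9.26), against 1.04 and 0 counts in WT RIP (input 15.5). Its ASI1 RIP over WT RIP ratio was 169 (95% counting interval 30.2 to 6675), an interval kept wide by the single WT read. The glucosyltransferase gene UGT88A1 had 781 and 836 CPM in ASI1 RIP (input 43.2), against 44.6 and 0 CPM in WT RIP (input 100.3). EMB2766, a nuclear pore gene, had 795 and 773 CPM in ASI1 RIP (input 86.4), against 44.6 and 0 CPM in WT RIP (input 83.6). In both the 2 ASI1 RIP libraries agreed closely and stood apart from the other 4, which held 0 to 6 reads each. ACD6, an ankyrin gene that raises salicylic acid defence, had 767 and 1543 CPM in ASI1 RIP (input 173), against 44.6 and 50.7 CPM in WT RIP (input 83.6). AT4G28300, with a domain of unknown function, had 1743 and 897 CPM in ASI1 RIP (input 302), against 44.6 and 40.6 CPM in WT RIP (input 134). PUP14, DIN10, PSBP-1, SAC3A and EMB2766 overlap an antisense gene in the annotation, as do 66 members in all, and 31 members overlap a gene on the same strand; the sources used here do not say whether counting used strand, so such reads are uncertain.

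**Figure D4:**
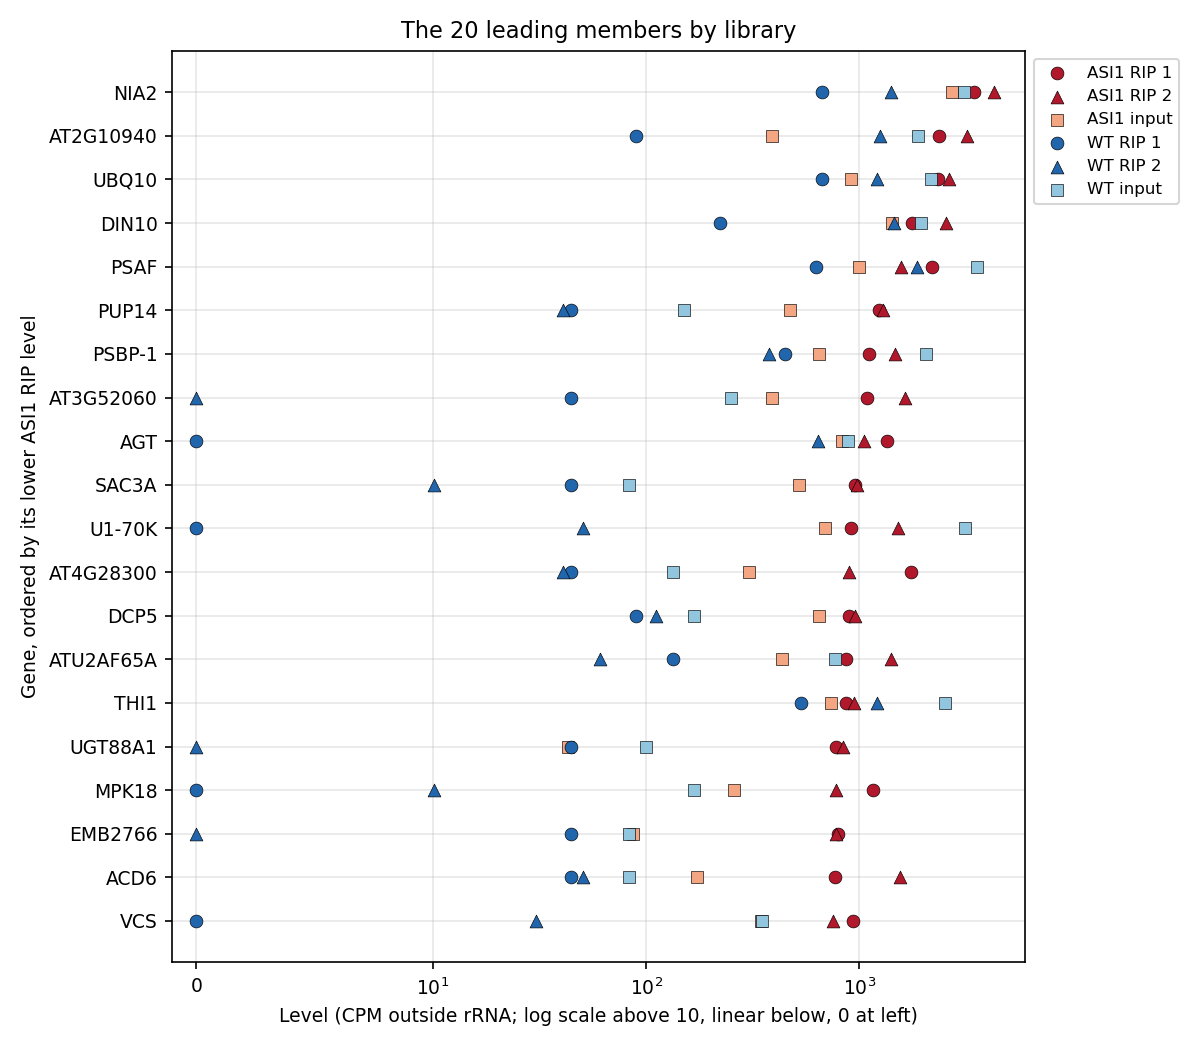
Levels of the 20 members with the highest lower ASI1 RIP level, in CPM outside rRNA (log axis above 10, linear below), with ASI1 libraries in red shades, WT libraries in blue shades, circles and triangles for RIP replicates 1 and 2, and squares for inputs. NIA2 stands at 3451 and 4257 CPM in ASI1 RIP, against 669 and 1409 in WT RIP; with rRNA in the scale the position of the WT RIP libraries relative to input turns for most members.

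Genes that act on RNA itself were among the leading members. Of 68 shared genes for RNA binding and splicing, 7 were members (10.3%, against 11.6% of all shared genes). U1-70K encodes a protein of the U1 particle that recognises the start of an intron, and ATU2AF65A encodes the large subunit of the factor that binds ahead of the intron's end. U1-70K had 412 and 551 counts in ASI1 RIP (input 16.5), against 0 and 5.25 counts in WT RIP (input 193). Its levels were 918 and 1523 CPM in ASI1 RIP (input 691), against 0 and 50.7 CPM in WT RIP (input 3125); both ASI1 RIP libraries lay above both WT RIP libraries, and the WT input stood above all. ATU2AF65A had 869 and 1408 CPM in ASI1 RIP (input 432), against 134 and 60.8 CPM in WT RIP (input 769), with an ASI1 RIP over WT RIP ratio of 15.6 (95% counting interval 8.21 to 34.3). RS41, a serine and arginine rich splicing regulator, had 1046 and 753 CPM in ASI1 RIP (input 216), against 0 and 10.14 CPM in WT RIP (input 167). AT2G42270, a helicase of the U5 particle, had 664 and 749.9 CPM in ASI1 RIP (input 259), against 0 and 40.6 CPM in WT RIP (input 217), and in both genes the 2 ASI1 RIP libraries lay above all others. AT5G51300, annotated as splicing factor-like, had 699 and 317 CPM in ASI1 RIP (input 0), against 0 and 20.3 CPM in WT RIP (input 167). SAC3A, of a family that in yeast takes part in export of mRNA from the nucleus, had 956 and 972 CPM in ASI1 RIP (input 518), against 44.6 and 10.14 CPM in WT RIP (input 83.6), with an input ratio of 6.21 (95% counting interval 2.04 to 22.5). Its ASI1 RIP over WT RIP ratio of 61.1 (95% counting interval 16.9 to 505) lay above that input ratio, and the 2 intervals overlapped.

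Factors of mRNA decapping and decay were gathered in a list after the values were seen, so their share is a description. Of 11 such genes listed for both genotypes, 5 were members (45.5%, against 11.6% of all shared genes). All 5 also met the rule against the pooled input, as did 82.8% of all members. DCP5, which promotes decapping and represses translation, had 895 and 958 CPM in ASI1 RIP (input 648), against 89.2 and 112 CPM in WT RIP (input 167). VCS, the scaffold that joins the decapping enzymes, had 929.9 and 756 CPM in ASI1 RIP (input 346), against 0 and 30.4 CPM in WT RIP (input 351), with nearly equal inputs at a ratio of 0.941 (95% counting interval 0.362 to 2.20). Its ASI1 RIP over WT RIP ratio was 36.0 (95% counting interval 12.3 to 175). AT3G22270, of the PAT1 family of decapping activators, had 440.5 and 617 CPM in ASI1 RIP (input 302), against 0 and 10.14 CPM in WT RIP (input 100.3). LARP1a, a La-related protein that guides mRNA decay under heat, had 1156 and 424 CPM in ASI1 RIP (input 259), against 0 and 10.14 CPM in WT RIP (input 267). XRN2, a nuclear exoribonuclease, had 366 and 441 CPM in ASI1 RIP (input 216), against 0 and 10.14 CPM in WT RIP (input 117). For these 3 genes WT RIP held no read in replicate 1 and 1 read in replicate 2. Among the listed genes that were not members, LARP1c had 259 and 669 CPM in ASI1 RIP (input 389), against 44.6 and 0 in WT RIP (input 234). XRN4 had 209.7 and 0 CPM in ASI1 RIP (input 43.2), against 0 and 10.14 in WT RIP (input 33.4). VCR had 545 and 0 CPM in ASI1 RIP (input 129.6), against 0 and 10.14 in WT RIP (input 33.4). AT1G79090 had 256 and 274 CPM in ASI1 RIP (input 216), against 44.6 and 892 in WT RIP (input 66.9). AT3G61240 had 482 and 8.65 CPM in ASI1 RIP (input 259), against 44.6 and 10.14 in WT RIP (input 117). AT2G45810 had 23.3 and 0 CPM in ASI1 RIP (input 129.6), against 0 and 10.14 in WT RIP (input 251). No pentatricopeptide gene (0 of 3) and no polyadenylation factor (0 of 2) was a member.

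Of 137 shared protein kinase genes, which act in signalling, 17 (12.4%) were members, near the 11.6% of all shared genes. MPK18, a MAP kinase linked to microtubules, had 1161 and 776 CPM in ASI1 RIP (input 259), against 0 and 10.14 CPM in WT RIP (input 167), and MPK17 had 457 and 444 CPM in ASI1 RIP (input 216), against 89.2 and 0 CPM in WT RIP (input 134). MKK9 and MKK4 are upstream kinases that act in ethylene and immune signalling. MKK9 had 438 and 288 CPM in ASI1 RIP (input 0), against 44.6 and 0 CPM in WT RIP (input 50.1). MKK4 had 256 and 162 CPM in ASI1 RIP (input 0), against 0 and 10.14 CPM in WT RIP (input 33.4). A count of 0 in the ASI1 input allows up to 126 CPM, so for MKK9 and MKK4 both ASI1 RIP libraries lay above that limit. Of 8 MAP kinase cascade genes in both tables, gathered after the values were seen, these 4 were members. MPK3 was not, at 119 and 208 CPM in ASI1 RIP (input 389), against 0 and 30.4 in WT RIP (input 100.3). Nor was MKP1, at 629 and 303 CPM in ASI1 RIP (input 389). MAPKKK14, at 0 and 118 CPM in ASI1 RIP (input 86.4), and MAPKKK7, at 93.2 and 0 CPM (input 216), were not members either. The calcium-dependent kinase CPK28, a brake on immune signalling, had 414 and 542 CPM in ASI1 RIP (input 302), against 0 and 10.14 in WT RIP (input 66.9). Its relative CPK1 had 401 and 444 CPM in ASI1 RIP (input 346), against 0 and 30.4 in WT RIP (input 117). The pooled ASI1 RIP over input ratio was 1.60 (95% counting interval 0.770 to 4.01) for CPK28 and 1.25 (95% counting interval 0.628 to 2.92) for CPK1. CPK28 also had a higher ASI1 input than WT input, by a ratio of 4.53 (95% counting interval 1.15 to 21.1).

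Of 101 shared transcription factor genes 20 were members (19.8%), and of 39 chromatin genes 8 (20.5%); no test was made of these shares against the 11.6% of all shared genes. WRKY15, of a family of stress regulators, had 627 and 661 CPM in ASI1 RIP (input 216), against 44.6 and 30.4 CPM in WT RIP (input 134). WRKY11, of the same family, had 466 and 969 CPM in ASI1 RIP (input 0), against 44.6 and 10.14 CPM in WT RIP (input 83.6). In WRKY11 no ASI1 input read was listed, and the ASI1 RIP levels lay well above the limit of 126 CPM. AT1G76880, of the homeodomain-like superfamily, had 431 and 642 CPM in ASI1 RIP (input 216), against 0 and 10.14 CPM in WT RIP (input 217). AT3G46600, of the GRAS family, had 468 and 421 CPM in ASI1 RIP (input 129.6), against 44.6 and 50.7 CPM in WT RIP (input 117). CHR5, a chromatin remodelling ATPase, had 466 and 127 counts in ASI1 RIP (input 0), against 1.04 and 0 counts in WT RIP (input 13.4). Its ASI1 RIP replicates stood at 1039 and 352 CPM, and the WT input at 217 CPM lay above both WT RIP libraries. SIZ1, a SUMO ligase, had 309.96 and 678 CPM in ASI1 RIP (input 86.4), against 44.6 and 0 CPM in WT RIP (input 117). MBD9, a methyl-CpG-binding domain protein, had 226 and 306 CPM in ASI1 RIP (input 129.6), against 44.6 and 0 CPM in WT RIP (input 83.6). AT5G08230, a PWWP domain gene, had 599 and 314 CPM in ASI1 RIP (input 259), against 44.6 and 20.3 CPM in WT RIP (input 117). In these 3 genes the WT RIP libraries held 0 to 2 reads each.

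The ubiquitin list gave 11 members of 67 (16.4%, against 11.6% of all shared genes), among them UBQ10 and SIZ1. AT5G23110, a very large RING finger protein, had 689.8 and 753 CPM in ASI1 RIP (input 518), against 44.6 and 30.4 CPM in WT RIP (input 267). The ligase gene LUL3 had 545 and 473 CPM in ASI1 RIP (input 0), against 0 and 10.14 CPM in WT RIP (input 33.4). The F-box gene AT1G23390 had 778 and 429.8 CPM in ASI1 RIP (input 389), against 89.2 and 30.4 CPM in WT RIP (input 117). Membrane traffic gave 7 of 40 (17.5%), and all 7 met the rule against the pooled input, as did 82.8% of all members. ERMO2, a Sec24 coat protein of transport vesicles, had 613 and 704 CPM in ASI1 RIP (input 302), against 89.2 and 10.14 CPM in WT RIP (input 150.4). AT4G32640, of the same Sec23/Sec24 family, had 417 and 326 CPM in ASI1 RIP (input 216), against 44.6 and 0 CPM in WT RIP (input 50.1). The Rab escort protein gene REP had 545 and 447 CPM in ASI1 RIP (input 0), against 44.6 and 10.14 CPM in WT RIP (input 184). AT5G65950, a subunit of the trafficking protein particle complex, had 403 and 1284 CPM in ASI1 RIP (input 346), against 0 and 50.7 CPM in WT RIP (input 66.9). In each of these 4 genes both ASI1 RIP libraries lay above the other libraries. For AT4G32640 the pooled ASI1 RIP over input ratio was 1.79, with a counting interval of 0.759 to 5.56. Chaperones gave 4 of 33 (12.1%), with the plastid HSP90 gene CR88 at 121 and 262 CPM in ASI1 RIP (input 86.4), against 178 and 81.1 CPM in WT RIP (input 384), where the WT input stood above the ASI1 RIP libraries. The chaperonin subunit gene AT3G18190 had 664 and 141 CPM in ASI1 RIP, against 44.6 and 10.14 in WT RIP. The DnaJ gene AT3G13310 had 247 and 208 CPM in ASI1 RIP, against 0 and 10.14 in WT RIP. The DnaJ gene AT2G05230 had 94.4 and 205 CPM in ASI1 RIP, against 83.6 and 0 in WT RIP.

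Nitrogen and photorespiration genes were also gathered after the values were seen. Over all shared genes 11.6% were members. Of 5 shared genes of nitrate use 3 were members: NIA2, the nitrate transporter and sensor NRT1.1, and LBD37, a repressor of nitrogen-responsive genes. NRT1.1 had 613 and 268 CPM in ASI1 RIP (input 86.4), against 44.6 and 71.0 CPM in WT RIP (input 83.6), with WT RIP replicate 2 close to the WT input. LBD37 had 357 and 438 CPM in ASI1 RIP (input 173), against 44.6 and 0 CPM in WT RIP (input 167). The other nitrate reductase gene, NIA1, was not a member, at 3044 and 1483 CPM in ASI1 RIP (input 821), against 3121 and 699.5 in WT RIP (input 585), so it lay above input in all 4 RIP libraries. The nitrite reductase gene NIR1, next in the pathway, had 519.7 and 234 CPM in ASI1 RIP (input 129.6), against 1070.1 and 750.2 in WT RIP (input 33.4). The genes of 1 pathway thus differed in WT RIP. Of 8 photorespiration genes 3 were members. AGT, the peroxisomal alanine:glyoxylate aminotransferase, had 1352 and 1053 CPM in ASI1 RIP (input 826), against 0 and 639.7 CPM in WT RIP (input 886); the 2 WT RIP libraries differed, at 0 and 639.7 CPM. DIT2.1, a plastid dicarboxylate carrier, had 413 and 482 CPM in ASI1 RIP (input 0), against 44.6 and 30.4 CPM in WT RIP (input 117). The glycolate oxidase gene GOX2 had 305 and 505 CPM in ASI1 RIP (input 86.4), against 178 and 760.3 CPM in WT RIP (input 1655), so WT RIP replicate 2 lay above both ASI1 RIP libraries, and its near copy GOX1, which was not a member, had 149 and 115 CPM in ASI1 RIP (input 518), against 312 and 537 in WT RIP (input 1187). Reads of the 2 oxidases may have been divided between them. GGT1 and GLDP1 were not members and lay below the ASI1 input in both ASI1 RIP libraries. GGT1 had 11.7 and 271 CPM (input 1339) and GLDP1 had 179 and 211 CPM (input 475). Of the ASI1 RIP libraries, SHM1 and AT1G11860 lay above input in replicate 1 alone. SHM1 had 403 and 40.4 CPM (input 259) and AT1G11860 had 499 and 37.5 CPM (input 216).

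Glucosinolates are the sulphur-containing defence compounds of the cabbage family. Of 11 shared genes for their synthesis, breakdown, transport and regulation 5 were members (45.5%, against 11.6% of all shared genes). The list was likewise made after the values were seen. The regulator MYB51 met the rule and was among the 11 left out of the members. CYP83B1, which commits indole oximes to the indole branch, had 527 and 969 CPM in ASI1 RIP (input 302), against 0 and 30.4 CPM in WT RIP (input 150.4). CYP81F4 and IGMT4 modify the indole ring. CYP81F4 had 431 and 813 CPM in ASI1 RIP (input 302), against 44.6 and 10.14 CPM in WT RIP (input 66.9). IGMT4 had 364 and 1056 CPM in ASI1 RIP (input 259), against 0 and 10.14 CPM in WT RIP (input 217). The S-glucosyltransferase gene UGT74B1 had 198 and 225 CPM in ASI1 RIP (input 173), against 0 and 10.14 CPM in WT RIP (input 83.6). PEN2, a myrosinase that breaks these compounds down, had 214 and 89.4 CPM in ASI1 RIP (input 43.2), against 89.2 and 40.6 CPM in WT RIP (input 167); ASI1 RIP replicate 2 and WT RIP replicate 1 were equal at 89.4 and 89.2 CPM, and PEN2 alone of the 5 failed against the pooled input. CYP79B2, which makes the oxime, was not a member, at 196 and 407 CPM in ASI1 RIP (input 173), against 44.6 and 20.3 in WT RIP (input 0). SUR1, a lyase of the core pathway, had 6.99 and 721 CPM in ASI1 RIP (input 389), against 0 and 558 in WT RIP (input 100.3). The sulfotransferase gene SOT16 had 0 and 459 CPM in ASI1 RIP (input 129.6), against 44.6 and 0 in WT RIP (input 100.3). In both genes ASI1 RIP replicate 1 lay below input. The transporter gene PEN3 had 2547 and 4243 CPM in ASI1 RIP (input 3369), against 5172 and 2697 in WT RIP (input 1721), and the myrosinase gene TGG1 had 993 and 499 CPM in ASI1 RIP (input 605), against 490.5 and 182 in WT RIP (input 1454). The wider list of cytochrome P450 and UDP-glycosyltransferase genes gave 7 members of 28 (25.0%). All 7 met the rule against the pooled input, as did 82.8% of all members. Besides UGT88A1, the wider list named UGT74F2, a salicylic acid glucosyltransferase, at 519.7 and 274 CPM in ASI1 RIP (input 259), against 44.6 and 0 CPM in WT RIP (input 201).

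The photosynthesis and ribosomal protein lists gave 2 and 8 members, and no test was made of their shares against the 11.6% of all shared genes. Of 43 photosynthesis genes 2 were members (4.65%), PSAF and PSBP-1, and neither met the rule against the pooled input, while 5 followed the mirror rule. Of 96 ribosomal protein genes 8 were members (8.33%) and 8 followed the mirror rule, and 4 of the members held against the pooled input. AT5G02870, of the L4 family, had 648 and 637 CPM in ASI1 RIP (input 86.4), against 178 and 122 CPM in WT RIP (input 184). AT5G58420, of the S4 family, had 221 and 222 CPM in ASI1 RIP (input 86.4), against 44.6 and 50.7 CPM in WT RIP (input 201). AT3G20230, of the L18 family, had 436 and 225 CPM in ASI1 RIP (input 86.4), against 44.6 and 10.14 CPM in WT RIP (input 50.1). AT5G62300, of the S10 family, had 182 and 436 CPM in ASI1 RIP (input 86.4), against 0 and 40.6 CPM in WT RIP (input 267). Many ribosomal protein genes have near-identical copies, so the division of their reads is uncertain.

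Defence, transport, wall, hormone and protease genes were members at rates from 12.0% to 16.7%, against 11.6% of all shared genes. No test was made of these rates. Of 18 disease resistance genes 3 were members (16.7%), namely AT3G26470, with an RPW8 domain, and the TIR-NBS-LRR genes AT4G36140 and AT3G44670. AT3G26470 had 254 and 277 CPM in ASI1 RIP, against 0 and 10.14 in WT RIP. AT4G36140 had 221 and 274 CPM in ASI1 RIP (input 129.6), against 0 and 10.14 in WT RIP (input 66.9). AT3G44670 had 214 and 153 CPM in ASI1 RIP, against 0 and 10.14 in WT RIP. The WT RIP libraries held 1 read in all for each of the 3. The list drew on gene names, and ADR1-L1, a helper in immune signalling that its keywords missed, was also a member, at 436 and 466 CPM in ASI1 RIP (input 175), against 44.6 and 20.3 CPM in WT RIP (input 100.3). Of 77 transporter genes 10 were members (13.0%), with PUP14, DIT2.1, NRT1.1 and AT5G14120 named above. Of 83 cell wall genes 10 were members (12.0%). They include hydroxyproline-rich glycoprotein genes. Of these AT3G56590 had 722 and 579.8 CPM in ASI1 RIP (input 389), against 44.6 and 10.14 in WT RIP (input 184). AT4G25620 had 282 and 779 CPM in ASI1 RIP (input 129.6), against 0 and 10.14 in WT RIP (input 100.3). AT5G65660 had 238 and 274 CPM in ASI1 RIP (input 0), against 44.6 and 20.3 in WT RIP (input 83.6). COBL8, of the COBRA family of wall proteins, had 221 and 401 CPM in ASI1 RIP, against 0 and 20.3 in WT RIP.

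Of 33 hormone genes 5 were members (15.2%). The auxin-induced repressor gene IAA2 had 732 and 216 CPM in ASI1 RIP (input 0), against 0 and 30.4 CPM in WT RIP (input 234), and WES1, which conjugates auxin to amino acids, had 238 and 695 CPM in ASI1 RIP (input 86.4), against 44.6 and 30.4 CPM in WT RIP (input 50.1). EFE, the final enzyme of ethylene synthesis, had 364 and 265 CPM in ASI1 RIP (input 43.2), against 44.6 and 20.3 CPM in WT RIP (input 217). AT5G35735, an auxin-responsive gene, had 529 and 935 CPM in ASI1 RIP (input 129.6), against 44.6 and 40.6 CPM in WT RIP (input 100.3). Each had both ASI1 RIP levels above or close to its highest level elsewhere, except IAA2, whose ASI1 RIP replicate 2 lay below the WT input. Of 58 protease genes 7 were members (12.1%). The aspartyl protease gene AT1G66180 had 1032 and 672 CPM in ASI1 RIP, against 0 and 30.4 in WT RIP, and AT3G61820, of the same family, had 226 and 176 CPM in ASI1 RIP, against 44.6 and 30.4 in WT RIP. The insulinase family gene AT2G41790 had 259 and 257 CPM in ASI1 RIP (input 129.6), against 44.6 and 10.14 in WT RIP (input 83.6). The subtilase gene AT2G05920 had 203 and 213 CPM in ASI1 RIP (input 86.4), against 44.6 and 0 in WT RIP (input 100.3). In all, 127 members fell into at least 1 list and 141 into none.

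Among the members outside the lists were regulators of light, hormone and nutrient responses, chosen for description after the members' values were seen. CRY1, the blue light receptor cryptochrome, had 648 and 332 CPM in ASI1 RIP (input 173), against 44.6 and 0 CPM in WT RIP (input 167). MAX2, the F-box protein of strigolactone signalling, had 284 and 599.95 CPM in ASI1 RIP (input 259), against 0 and 10.14 CPM in WT RIP (input 117). Both ASI1 RIP libraries lay above the other 4, but replicate 1 exceeded the ASI1 input by a log2 value of only 0.027. Its pooled ASI1 RIP over input ratio was 1.69 (95% counting interval 0.768 to 4.63). PHO2, which limits phosphate uptake, had 121 and 245 CPM in ASI1 RIP (input 86.4), against 44.6 and 0 CPM in WT RIP (input 66.9), with the lower ASI1 RIP library above all 4 others. TAF4 and TAF2 are subunits of the general transcription factor TFIID. TAF4 had 410.2 and 557 CPM in ASI1 RIP (input 129.6), against 0 and 10.14 CPM in WT RIP (input 134). TAF2 had 459 and 173 CPM in ASI1 RIP (input 129.6), against 89.2 and 40.6 CPM in WT RIP (input 100.3), with its WT RIP replicate 1 close to the WT input. PAL2, the entry enzyme of phenylpropanoid synthesis, had 1142 and 274 CPM in ASI1 RIP (input 86.4), against 44.6 and 20.3 CPM in WT RIP (input 167), and its ASI1 RIP replicates differed more than those of TAF4. The related genes with an octicosapeptide domain, AT3G26510, AT5G16220 and AT4G05150, were members. AT3G26510 had 1044 and 732 CPM in ASI1 RIP (input 173), against 44.6 and 0 CPM in WT RIP (input 134). AT5G16220 had 571 and 773 CPM in ASI1 RIP (input 259), against 0 and 20.3 CPM in WT RIP (input 33.4). AT4G05150 had 354 and 438 CPM in ASI1 RIP (input 302), against 89.2 and 10.14 CPM in WT RIP (input 184). In each of the 3 the ASI1 RIP libraries lay above the other 4. For AT4G05150 the pooled ASI1 RIP over input ratio was 1.33 (95% counting interval 0.640 to 3.35). AT3G26510 overlaps a gene on the opposite strand, and AT5G16220 overlaps one on its own strand, as does EIF4A1, so the counting could have split reads between them. The translation initiation gene EIF4A1 had 322 and 372 CPM in ASI1 RIP (input 259), against 223 and 101 CPM in WT RIP (input 418), where the WT input stood above the ASI1 RIP libraries. SAG101, a lipase-like partner in immune signalling, had 126 and 288 CPM in ASI1 RIP (input 0), against 0 and 10.14 CPM in WT RIP (input 33.4), at no more than 1 WT RIP read. Its ASI1 RIP replicate 1 lay at about the limit of 126 CPM that a 0 in the ASI1 input allows, so that rise was not resolved.

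**Figure D5:**
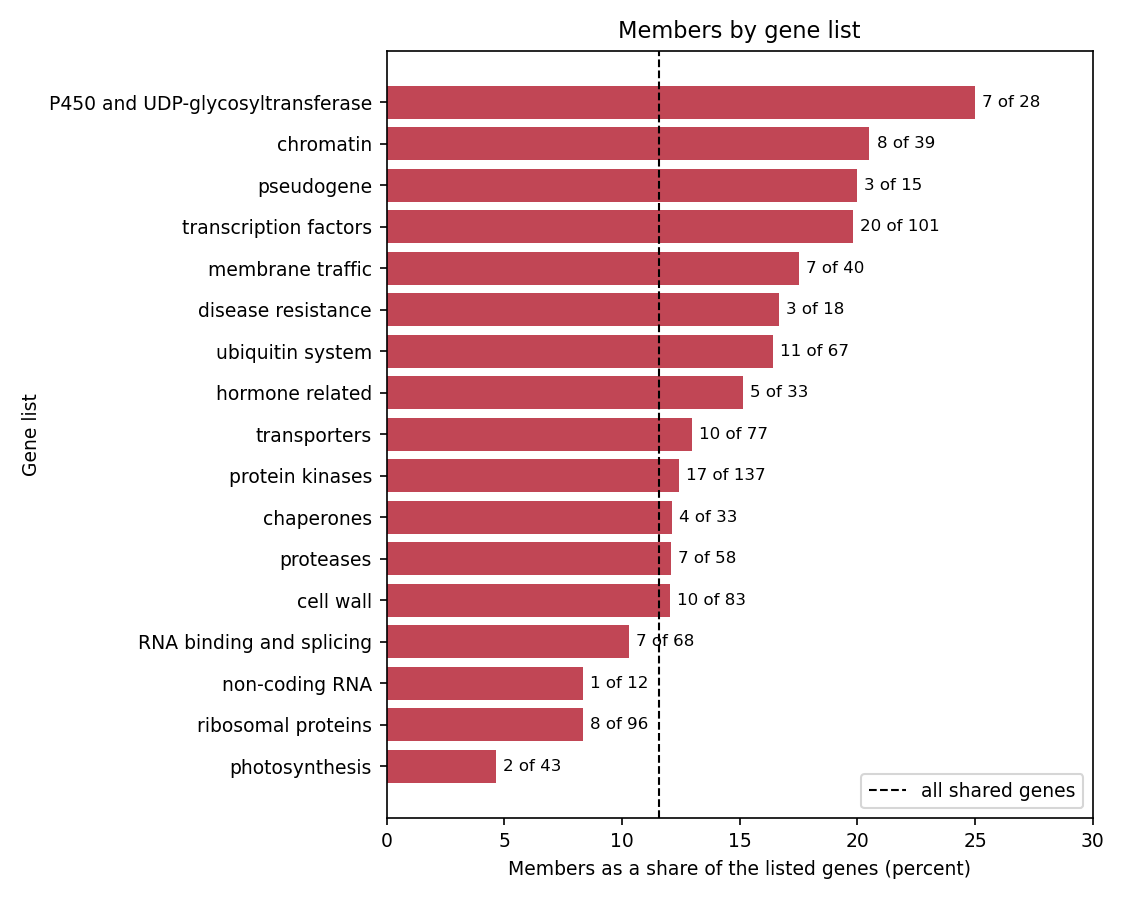
Bars give the share of the shared genes of each list (at least 8 genes) that were members, with the counts beside them; the dashed line is the 11.6% of all 2319 shared genes that were members. Cytochrome P450 and UDP-glycosyltransferase genes stand at 25.0% and photosynthesis genes at 4.65%; no test was made, and membership turns with rRNA in the scale for all but 8 genes.

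Most members were protein-coding (264 of 268). The lncRNA gene AT1G25098 had 638 and 1133 CPM in ASI1 RIP (input 235), against 52.4 and 29.9 CPM in WT RIP (input 124). The pseudogene AT5G40920 had 419 and 749.9 CPM in ASI1 RIP, against 44.6 and 0 in WT RIP. The pseudogene AT4G16910 had 431 and 363 CPM in ASI1 RIP, against 0 and 10.14 in WT RIP. The pseudogene AT5G14840 had 303 and 1074 CPM in ASI1 RIP, against 0 and 20.8 in WT RIP. Reads of pseudogenes may be shared with their parent genes.

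Gene structure, which the rule did not use, was close to that of other genes. The exons of all annotated transcripts of a gene were merged, so an intron here is a stretch that no transcript covers. A gene counted without an intron may thus still have spliced transcripts. The median member was 2758 bp long with 4 exons and a longest intron of 255.5 bp, against 2912 bp, 5 exons and 280 bp over all shared genes. The mirror set had 2494.5 bp, 5.5 exons and 252 bp. The coding length was 1474.5 bases in the members, 1114.5 in the mirror set and 1458 over all shared genes. After this merging an intron of at least 500 bp was left in 51 members (19.0%), against 18.3% of all shared genes. One of at least 1000 bp was left in 10 members (3.73%), against 2.67%. Genes with no intron left after the merging made up 17.2% of the members and 12.1% of all shared genes. The longest was that of AT1G27100, an actin cross-linking protein gene, at 1856 bp (9408595 to 9410450 on chromosome 1). NRT1.1 followed at 1724 bp (4106702 to 4108425 on chromosome 1), and IDD5 at 1562 bp (506365 to 507926 on chromosome 2). ACD6 had one of 1469 bp (8294744 to 8296212 on chromosome 4), and the homeodomain-like gene AT5G08520 one of 1375 bp (2755990 to 2757364 on chromosome 5). AT1G27100 had 242 and 237 CPM in ASI1 RIP (input 0), against 0 and 30.4 CPM in WT RIP (input 33.4). AT5G08520 had 506 and 408 CPM in ASI1 RIP (input 216), against 44.6 and 0 CPM in WT RIP (input 134). The tables hold 1 value per gene, so reads from introns and exons were not told apart.

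The members were spread over the 5 chromosomes, at 23.1%, 15.3%, 24.3%, 14.6% and 22.8% of the members on chromosomes 1 to 5, against 25.7%, 15.5%, 20.4%, 15.4% and 23.0% of all shared genes. In 3 cases 2 members were next to each other in the annotation, out of 180 such pairs of shared genes. AT1G80440, a kelch repeat gene, and AT1G80450, a VQ motif gene, lay on opposite strands 253 bp apart. AT1G80440 had 226 and 231 CPM in ASI1 RIP, against 44.6 and 0 in WT RIP, and AT1G80450 had 245 and 404 CPM in ASI1 RIP, against 0 and 10.14 in WT RIP. VCS and the DnaJ gene AT3G13310 lay on opposite strands 268 bp apart on chromosome 3. AGT and CHR5 lay on the minus strand of chromosome 2 with 2574 bp between them.

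Coding sequences of the members were searched on the sense strand for CCACCA, which in frame encodes a pair of prolines and recurs in wall protein genes, with overlapping matches counted. The motif occurred in 48.1% of 264 members, 30.3% of the mirror set, 44.2% of the genes above input in all 4 RIP libraries and 41.5% of all shared genes. Its density was 0.650 per kb of coding sequence in the members and 0.580 over all shared genes, against 1.43 in the mirror set and 2.03 in the genes above input in all 4 RIP libraries. The median density was 0.0 in each of these sets, since fewer genes held the motif than lacked it. The motif GAAGAA, a purine-rich element of exons, stood at 1.48 per kb in the members and 1.76 over all shared genes. A match is a string of letters and not a binding site. The 120-base windows with the most CCACCA are given for AT2G10940, AT4G15160 and AT4G01290. These are in turn the second leading member, the member with the highest density and a member near the border of the rule. Each had more CCACCA per kb than the 0.650 of the members pooled, so none stands for a typical member. In the windows the motif is in capitals. They come from the NCBI reference genome TAIR10.1, at chr2:4311436-4311555, minus strand, chr4:8646444-8646563, plus strand and chr4:539403-539522, minus strand, written along the strand of the gene.
AT2G10940: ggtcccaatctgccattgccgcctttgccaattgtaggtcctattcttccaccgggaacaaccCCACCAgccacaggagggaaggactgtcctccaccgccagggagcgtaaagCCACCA
AT4G15160: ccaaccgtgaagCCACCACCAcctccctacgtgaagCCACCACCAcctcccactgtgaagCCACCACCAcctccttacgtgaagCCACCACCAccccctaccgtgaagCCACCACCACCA
AT4G01290: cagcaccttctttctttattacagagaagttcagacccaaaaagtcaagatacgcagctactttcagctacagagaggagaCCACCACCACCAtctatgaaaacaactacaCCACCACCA
AT2G10940 and AT4G15160 encode proteins of the lipid-transfer and seed storage superfamily. AT4G15160, with 26.6 matches per kb, had 182 and 138 CPM in ASI1 RIP (input 0), against 0 and 10.14 CPM in WT RIP (input 117). AT2G10940, with 3.42 per kb, had 2370.1 and 3179 CPM in ASI1 RIP (input 389), against 89.2 and 1247 CPM in WT RIP (input 1889); its 2 WT RIP libraries differed at 89.2 and 1247 CPM, and its WT input lay below both ASI1 RIP libraries. AT4G01290, with 4.03 per kb, had 929.9 and 490.3 CPM in ASI1 RIP (input 475), against 0 and 20.3 CPM in WT RIP (input 334).

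The seedling tissue was checked against marker genes, none of which was a member. Of 10 markers of photosynthetic shoot cells 8 were listed in each table, with a summed level of 11066 and 6587 CPM in ASI1 RIP (input 20065), against 18826 and 45015 in WT RIP (input 41542). Of 8 root markers 3 were listed for ASI1 and 1 for WT, of 4 guard cell markers 1 for each, and of 4 vascular markers 1 for each. Unlike the shoot markers, these stood higher in the ASI1 input than in the WT input. The levels were 2030 and 685 CPM for root, 389 and 83.6 CPM for guard cell and 475 and 318 CPM for vascular markers. The root sums cover unlike numbers of genes. Of 4 seed storage markers 0 were listed for ASI1 and 1 for WT, at 44.6 and 943 CPM in WT RIP (input 16.7). The shoot markers thus stood lower in the ASI1 input than in the WT input, as did PSAF, PSBP-1, THI1, DRT112, GOX2 and GER1 among the members; the part of this difference in those results was not tested.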

How the data were processed

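RIP-seq libraries of ASI1 (2 RIP, 1 input) and WT (2 RIP, 1 input) were analysed. Per the file headers, the deposited tables (1 for ASI1 and 1 for WT) hold expected counts, CPM on the listed totals, and the authors' edgeR log2 fold change, mean log2 CPM, p-value and FDR of each gene. The submitters' processing notes name STAR 2.6.0c, Salmon 0.10.2 and edgeR; build and strand are not stated there. Deposited CPM and log2 CPM served only to check totals.

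The listed totals were 2566368 and 1804637 counts in ASI1 RIP, 4461715 in ASI1 input, 119916 and 525126 in WT RIP and 6383274 in WT input. ASI1 had 4020 listed genes, WT had 4654, and 2323 were shared, 4 of them rRNA. All identifiers (100%) matched TAIR10.1. Levels are expected counts per 1e6 counts outside the rRNA genes AT3G41768, AT2G01010, AT2G01020 and AT3G41979. Log2 ratios had 0.5 count added. Ratio intervals are exact conditional binomial 95% intervals on counts rounded to whole numbers.

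Rounded expected counts were fitted with edgeR 4.0.16 (R 4.3.3, limma 3.58.1, TMM, filterByExpr, 4 groups, glmQLFTest) over 2312 shared genes, calling genes by adjusted p (under 0.05) and log2 fold (1 or more in size); the procedure was tested on simulated data. An SE given with an edgeR log2 value was worked back from the test, as the size of that value over the square root of its quasi-likelihood F. It was not taken from the fit itself. DESeq2 1.42.0, other scalings, filters and left-out libraries were alternatives. Tables and plots used matplotlib 3.10.9, scipy 1.17.1, pandas 2.3.3 and numpy 2.4.6 in Python 3.11.15. The labels do not say whether replicate numbers pair libraries, and the main fit assumed no pairing. Over 2 pairs the deviations of same-numbered RIP libraries correlated at 0.0116. With a median of 1.04 counts per shared gene in WT RIP replicate 1, this value cannot tell whether libraries were paired.

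Named genes were the 20 members with the highest lower ASI1 RIP level, up to 4 per list by the same measure, the 5 longest introns, the 3 genes on each side of the rule's border, the 5 highest WT inputs and adjacent members; other names were chosen after their values were seen. The members and lists were chosen with earlier results of these data known, and keywords of the lists were trimmed after the values were seen.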

Additional observations from a re-analysis of the deposited data

Results flagged for a closer look

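All 268 members moved in opposite directions in the 2 genotypes, above input in both ASI1 RIP libraries and below input in both WT RIP libraries on the scale outside rRNA, which is what the rule selects. Only 8 of the 268 kept these directions with rRNA in the scale: U1-70K, LARP1a, IGMT4, EMB2083, AT1G03740, AT1G67280, AT1G76880 and AT5G14120. The difference of the enrichments between the genotypes was tested gene by gene in edgeR with Benjamini-Hochberg adjustment. The edgeR test called 0 members, with 0 at an unadjusted p under 0.05. DESeq2 called 0, with 4 members at that unadjusted p, and the share of all genes was not worked out for DESeq2. No group had the 4 samples that a check for a single deviating sample needs.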

How the results depend on the processing

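The number of genes that meet the rule, not counting the 11 left out by choice, was 268 with the scale outside rRNA and 40 with all listed counts as the scale (8 of them members), 114 with at least 3 counts in both inputs and 101 with at least a 2-fold distance from input, and 329 to 629 with 1 RIP library left out. It was 284 with TMM (177 of them members), 218 with DESeq2 size factors (191 of them members) and 317 against both inputs pooled (222 of them members), which was added after the values were seen. The member median in ASI1, 1.47 on the log2 scale, was 6.59 with listed totals, 2.50 with TMM, 1.72 with DESeq2 size factors, 0.88 with 2 counts added and 1.22 to 1.50 with 1 RIP library left out. The median in WT, -2.26, reversed to 2.08 with listed totals and was -0.94 with TMM, -1.34 with DESeq2 size factors and -2.50 to -1.34 with 1 RIP library left out. Counts outside rRNA made up 0.966% of all listed counts in the WT input, against 19.4% and 19.7% in WT RIP. In ASI1 they made up 0.534% in the input, against 17.5% and 20.1% in RIP. The shift with listed totals follows from these shares. Why the shares differed was not tested.

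Genes called in the whole table numbered 1 for ASI1 RIP over input, 2 with DESeq2 size factors, 2 with DESeq2 and 1 to 10 with 1 RIP library left out. For WT RIP over input there was 1, and 0 with DESeq2. The difference of enrichments had 0, 1 with DESeq2 size factors and 0 to 1 with 1 RIP library left out. ASI1 RIP over WT RIP had 0, 1 with DESeq2 size factors, 17 with DESeq2 and 0 to 3 with 1 RIP library left out. No member was called under any of these settings. With the replicate block over the 4 RIP libraries edgeR called 0 genes, as without the block, with 3 and 26 genes at an unadjusted p under 0.05. Depth limits the WT side: 134 members had at most 1 read in each WT RIP library, and the WT input held under 20 counts of 242 members.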
